A study of Homo sapiens with 9 samples.

Results

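The MYC, MAX and MLX network is a family of basic helix-loop-helix leucine zipper (bHLH-ZIP) transcription factors. Its description here covers 10 genes of the 38021 in a count table from 786-O cells. The genes were listed by name, with no measured value in the rule, but with earlier results of these data known. They were MYC, its partner MAX and the MAX-binding repressors MXI1, MXD1, MXD4 and MNT. The others were the MLX arm (MLX and MLXIP, the gene for MondoA), and TXNIP and ARRDC4, known targets of that arm. All 10 had reads in every library and were tested in every comparison. The study examined how the bHLH-PAS proteins ARNT and BMAL1 contribute to gene expression in clear cell renal cell carcinoma.

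786-O is an established human line of that cancer. It has no functional VHL, so that HIF2α, the partner of ARNT, accumulates at normal oxygen. RNA was taken from cells that carried a lentiviral short hairpin RNA (shRNA), with 3 libraries labelled as biological replicates in each of 3 groups. The shControl cells are labelled WT, the shARNT cells ARNT knockdown and the shBMAL1 cells BMAL1 knockdown. All 3 groups shared infection with a pLKO.1 lentivirus, puromycin selection and culture in Dulbecco's modified Eagle's medium with fetal bovine serum. The labels do not say which hairpin was used, and the study's methods list more than 1 for BMAL1. The libraries of a group are not divided by hairpin, so effects of the target and of the hairpin sequence cannot be told apart. Nothing in the labels says whether the replicates were separate infections, so p values measure the spread between these libraries.

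Network proteins bind the E-box, a short palindromic DNA site, as dimers. MYC with MAX activates transcription of genes for growth, ribosome assembly and nucleotide synthesis, whereas MAX joined to a MXD protein, MXI1 or MNT recruits corepressors to such sites. MLX pairs with MLXIP or MLXIPL, which respond to glucose phosphates. The HIF and BMAL1 dimers belong to the related bHLH-PAS family, and BMAL1 with CLOCK also binds E-boxes.

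Libraries held 33793045 to 35444735 reads each. ARNT was measured at 2352 ± 184 normalised read counts in shControl and 1225 ± 23.2 in shARNT (SD, n = 3 libraries in this and every following mean), a log2 fold change of -0.94 (adjusted p = 8.81e-35). BMAL1, listed as ARNTL, was measured at 761 ± 32 in shControl and 326 ± 29.2 in shBMAL1, a log2 fold change of -1.23 (adjusted p = 2.51e-25). Each hairpin group also had less of the other transcript, with ARNTL at 633 ± 57.8 in shARNT (adjusted p = 0.0294) and ARNT at 2014 ± 76.2 in shBMAL1 (adjusted p = 0.0187). For the proteins, the study's immunoblot instead showed slightly more of each when the other was depleted. The kidney carcinoma markers PAX8, KRT8, KRT18, VIM and EPAS1 were abundant in all 9 libraries, at 3250 or more normalised read counts each. CA9 was at 108.2 to 145.9 in shControl, 16.9 to 18.5 in shARNT and 244.8 to 289.9 in shBMAL1, and NDUFA4L2 ran from 5.85 to 28.2. Of these 7 markers, 4 were lower and 1 higher in shARNT and 3 lower and 1 higher in shBMAL1, beside 19.0% lower and 16.5% higher of all genes tested in shARNT and 19.4% and 17.4% in shBMAL1 (adjusted p under 0.1), and their part in the results was not tested. The endothelial markers PECAM1, VWF, CDH5 and KDR and the leukocyte markers PTPRC, CD3E and LYZ did not exceed 8.95, and CDH5, CD3E and LYZ were at 0 in all libraries. Mitochondrial genes took 5.5% to 7.19% of the reads in shControl, 7.64% to 8.79% in shARNT and 8.78% to 9.73% in shBMAL1, and their part in the results was not tested.

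A gene was called lower or higher at a Benjamini-Hochberg adjusted p under 0.1 in DESeq2, with p values adjusted over all genes tested. In shARNT against shControl, 7 of the 10 network genes were called, 5 lower and 2 higher, beside 35.4% of all genes tested (19.0% lower and 16.5% higher). In shBMAL1 against shControl, 6 were called, 2 lower and 4 higher, beside 36.8% of all genes (19.4% lower and 17.4% higher). In the direct comparison of shBMAL1 with shARNT, 6 were called, 2 lower in shBMAL1 and 4 higher, beside 35.3% of all genes (18.0% lower and 17.3% higher). The median log2 fold change of the network genes was -0.21, 0.13 and 0.04 in these comparisons, and that of all genes tested was 0.003, 0.015 and 0.009. Both knockdowns are set against the same control libraries, so values in those libraries enter both comparisons.

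**Figure D1:**
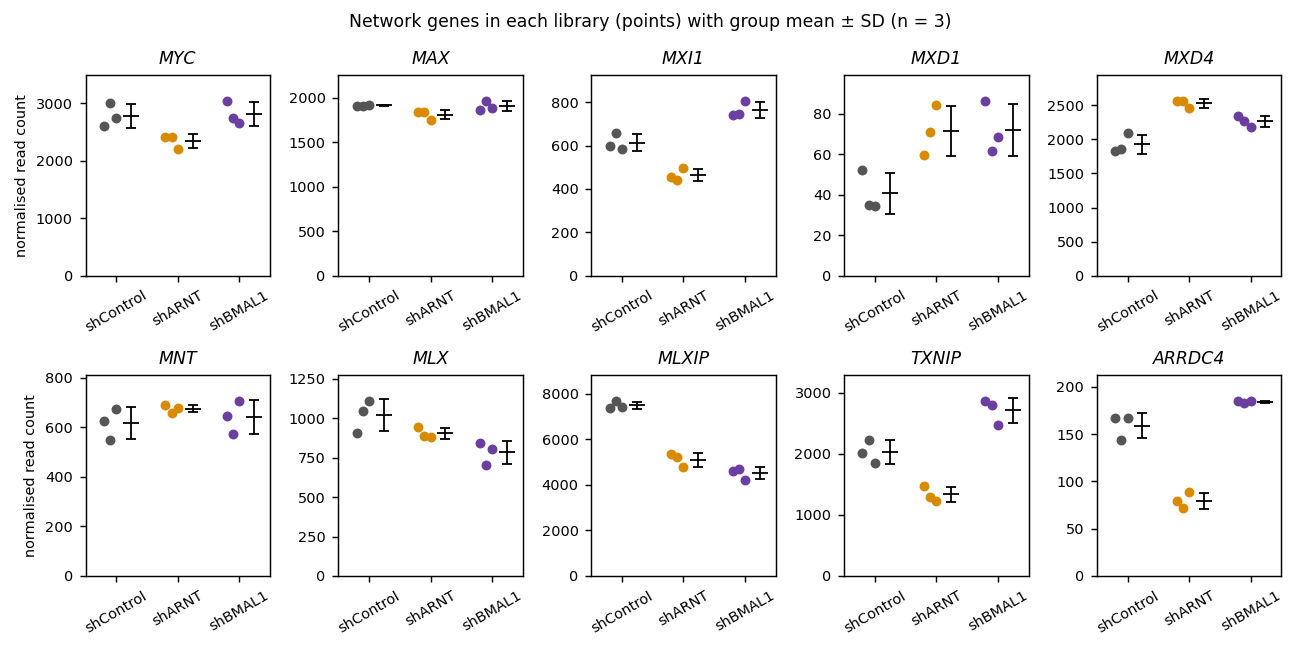
Normalised read counts (y axes, linear, from 0) of the 10 network genes in each library of shControl, shARNT and shBMAL1 (x axes). Points are libraries, and the bars beside them give the mean and SD (n = 3). TXNIP, MXI1 and ARRDC4 are lowest in all 3 shARNT libraries and highest in all 3 shBMAL1 libraries, while MLXIP is below every control library in both knockdowns.

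MLX and its targets are described first, because the fold changes of TXNIP and ARRDC4 between the knockdowns were the largest in size of the 10 genes. Genomic positions are on GRCh37. Promoter windows of 300 bases (250 before the RefSeq start and 50 after it; RefSeq sequences on GRCh38.p14) were found for 9 of the 10 genes, in 13 windows, and were searched on both strands. The palindromic E-box CACGTG occurred in 4 of the 13 windows, those of ARRDC4, MLX, MNT and MXD4, and in 7.26% of all 35116 windows. A pair of CACGNG boxes separated by 5 bases, the form of element that MLX dimers are known to bind, occurred in 1 of the 13 windows, of TXNIP. It occurred in 20 windows in all (0.057%). The core ACGTG, which is part of CACGTG and of BMAL1 and many HIF sites, was present in 7 of the 13 windows (7 network genes) and in 21.4% of all windows. GCGTG, the core of other HIF sites, was present in 6 of the 13 windows (5 network genes) and in 36.5% of all windows. A match describes letters only, and no binding was measured in these libraries. The E-boxes, shown because they are the known type of site for the network's own proteins, stand in capitals with the bases around them, 5′ to 3′ on the strand of the gene:
TXNIP, chr1:145438396-145438424, plus strand, 88 to 72 bases before the start: gatgtgCACGAGGGCAGCACGAGcctccg
ARRDC4, chr15:98503711-98503740, plus strand, 210 to 205 bases before the start: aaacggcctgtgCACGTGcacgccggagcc
MLX, chr17:40719056-40719085, plus strand, 50 to 45 bases before the start: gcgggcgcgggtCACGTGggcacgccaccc
MNT, chr17:2304530-2304559, minus strand, 193 to 188 bases before the start: ccctgcccgggcCACGTGtgcgcgcgccgg
MXD4, chr4:2264057-2264086, minus strand, 238 to 233 bases before the start: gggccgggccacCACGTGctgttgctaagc

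TXNIP (chromosome 1, 145438490 to 145442635, plus strand) encodes an alpha-arrestin that binds thioredoxin and restrains glucose uptake. Its transcript moved in opposite directions in the knockdowns. In shControl it was counted at 2015, 2234 and 1844 normalised reads, in shARNT at 1474, 1296 and 1236, and in shBMAL1 at 2867, 2795 and 2476. No library of any group overlapped another group. The log2 fold change was -0.60 (SE 0.09, adjusted p = 7.97e-11) in shARNT against shControl and 0.42 (SE 0.09, adjusted p = 2.18e-05) in shBMAL1 against shControl. Between the knockdowns TXNIP was 2.03-fold higher in shBMAL1, a log2 difference of 1.02 (SE 0.09, adjusted p = 7.15e-29).

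ARRDC4 (chromosome 15, 98503933 to 98517063, plus strand), a paralogue of TXNIP that also limits glucose uptake, fell with ARNT depletion. Its normalised read counts were 167.0, 143.9 and 166.8 in shControl, 78.9, 71.7 and 88.5 in shARNT, and 184.7, 183.4 and 185.1 in shBMAL1. The mean in shControl was 1.99-fold that in shARNT (log2 fold change -1.0, SE 0.21, adjusted p = 1.45e-05). The shBMAL1 libraries all lay above the control libraries, but the difference did not pass the test (log2 fold change 0.21, 95% interval -0.13 to 0.55, adjusted p = 0.398). The knockdowns differed from each other by 1.21 on the log2 scale (SE 0.20, adjusted p = 1.43e-08), with ARRDC4 higher in shBMAL1.

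MLXIP (chromosome 12, 122516628 to 122631894, plus strand) encodes MondoA, the glucose-sensing partner of MLX. Its transcript fell in both knockdowns. The 3 libraries gave 7355, 7673 and 7427 normalised reads in shControl, 5337, 5204 and 4763 in shARNT, and 4615, 4695 and 4229 in shBMAL1. All knockdown libraries were below all control libraries. The change on the log2 scale was -0.55 with ARNT depletion (SE 0.06, adjusted p = 8.6e-21) and -0.73 with BMAL1 depletion (SE 0.07, adjusted p = 6.54e-27). The fall was deeper in shBMAL1 by 0.18 on the log2 scale (log2 difference -0.18, SE 0.07, adjusted p = 0.045). This last call was lost without shARNT replicate 1 (adjusted p = 0.208), shARNT replicate 2 (0.158) or shBMAL1 replicate 3 (0.204).

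MLX (chromosome 17, 40719090 to 40725257, plus strand), the shared partner of MLXIP and MLXIPL, fell with BMAL1 depletion. Its normalised read counts were 908.6, 1043 and 1109 in shControl, 943.2, 886.8 and 883.6 in shARNT, and 842.9, 702.4 and 807.9 in shBMAL1. The shARNT range overlapped that of the controls and the shBMAL1 range lay below both. The log2 fold change was -0.38 (SE 0.11, adjusted p = 0.00182) in shBMAL1. In shARNT it was -0.17 (95% interval -0.35 to 0.01, adjusted p = 0.153), which passed the test without shControl replicate 1 (log2 fold change -0.25, adjusted p = 0.048). The difference between the knockdowns, -0.21 (95% interval -0.40 to -0.01), had an adjusted p of 0.102, and it passed the threshold under 7 alternatives, among them edgeR (0.0818), GC correction (0.031) and leaving out shBMAL1 replicate 1 (0.0539). MLX shares 775 exon bases with PSMC3IP on the opposite strand, whose own log2 fold change was -0.08 in shARNT and -0.18 in shBMAL1 (adjusted p = 0.563 and 0.249).

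Other genes known to be activated by MLX with MLXIP or MLXIPL formed a list of 13, of which 11 had reads and 7 to 8 were tested. In shARNT, 2 were lower and none higher of 7 tested, beside 19.0% and 16.5% of all genes. In shBMAL1, 5 were lower and 1 higher of 8 tested, beside 19.4% and 17.4% of all genes, with a list median of -0.26. FASN, which makes fatty acids, was measured at 22323 ± 1012 normalised reads in shControl, against 19329 ± 1018 in shARNT and 12833 ± 955 in shBMAL1. Its log2 fold change was -0.20 in shARNT (adjusted p = 0.00105) and -0.80 in shBMAL1 (adjusted p = 1.22e-28). KLF10, a transcription factor gene, was measured at 2936 ± 192 in shControl, 2833 ± 168 in shARNT and 1970 ± 169 in shBMAL1, where it fell by 0.58 on the log2 scale (adjusted p = 1.31e-10). KHK, ketohexokinase, was the gene that rose with shBMAL1, from 73.4 ± 2.1 to 146 ± 13.4 (log2 fold change 0.99, adjusted p = 3.18e-05). SREBF1, a regulator of lipid synthesis outside this list, had a log2 fold change of 0.27 in shARNT and -0.24 in shBMAL1. The part of MLX or of any other regulator in these values was not tested.

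Of the alpha-arrestins outside the network, ARRDC3 showed the same order of groups as TXNIP and ARRDC4. ARRDC3, which takes part in the turnover of membrane receptors, was counted at 9722, 10329 and 9488 normalised reads in shControl, 6508, 7341 and 6829 in shARNT, and 11341, 13479 and 11748 in shBMAL1. It was lower in shARNT (log2 fold change -0.51, adjusted p = 5.85e-17), higher in shBMAL1 (0.31, adjusted p = 0.000282), and the knockdowns differed by 0.82 (adjusted p = 2.05e-24). ARRDC1 instead fell in both knockdowns, by 0.29 in shARNT (adjusted p = 0.000435) and 0.40 in shBMAL1 (adjusted p = 4.27e-06) on the log2 scale. ARRDC5 fell by 0.41 in shBMAL1 (adjusted p = 0.0282), and ARRDC2 was called in neither knockdown. Over these 4 genes, 2 were lower and none higher in shARNT, and 2 were lower and 1 higher in shBMAL1, beside 35.4% and 36.8% of all genes called in either direction.

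The thioredoxin system, made up of thioredoxins, which TXNIP binds and inhibits, and their reductases, was represented by 5 genes. In shBMAL1, 2 of the 5 were called, both lower, a share near the 36.8% of all genes called, and in shARNT 2 were called, beside 35.4%. TXN, the cytosolic thioredoxin, was measured at 6436 ± 313 normalised reads in shControl, against 6067 ± 110 in shARNT and 4438 ± 323 in shBMAL1 (log2 fold change -0.54, adjusted p = 4.04e-12, in shBMAL1). TXNRD1, its reductase, had a log2 fold change of -0.52 in shBMAL1 (adjusted p = 3.66e-14) and 0.10 in shARNT (adjusted p = 0.142). In shARNT, the reductase TXNRD3 was lower (-0.49, adjusted p = 0.000736) and the mitochondrial thioredoxin TXN2 was higher (0.26, adjusted p = 0.00165).

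**Figure D2:**
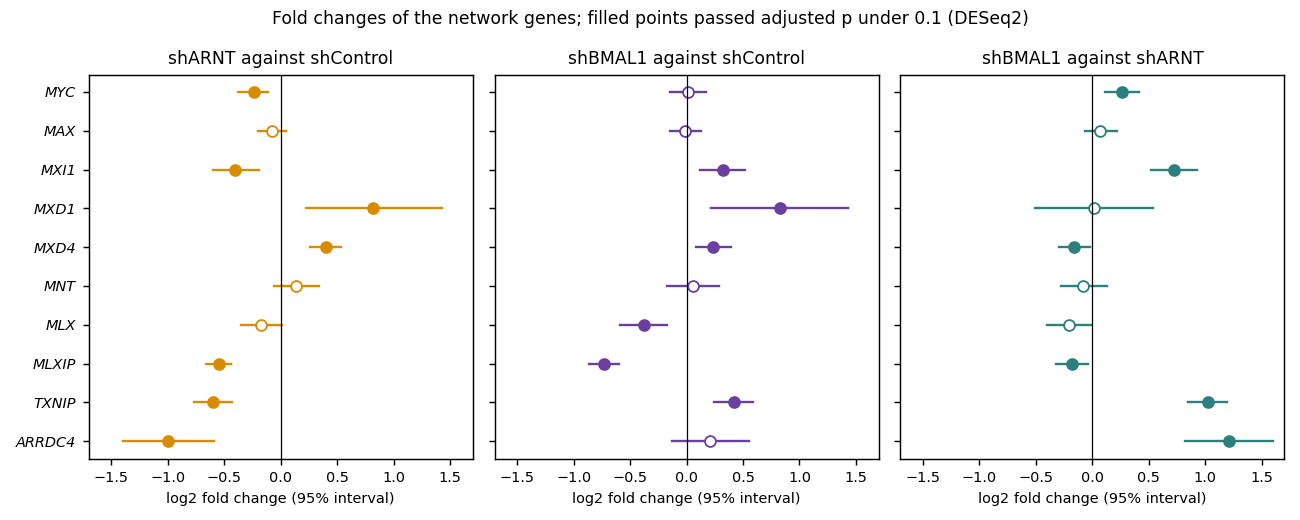
Log2 fold change (x axes) of each network gene (y axis), with each knockdown set against shControl in the left and middle panels and shBMAL1 set against shARNT on the right. Points are DESeq2 estimates with 95% intervals from 6 libraries per comparison, filled where the adjusted p was under 0.1. In the last comparison TXNIP (1.02), ARRDC4 (1.21) and MXI1 (0.72) lie to the right, and MAX (0.07) and MXD1 (0.01) have intervals that include 0.

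MYC, the activator of the network, was lower with ARNT depletion and not detectably changed with BMAL1 depletion. Its normalised read counts were 2601, 3008 and 2736 in shControl, 2417, 2409 and 2206 in shARNT, and 3040, 2732 and 2648 in shBMAL1. All 3 shARNT libraries were below every other library, and the shBMAL1 and control ranges overlapped. The log2 fold change was -0.24 (SE 0.07, adjusted p = 0.00299) in shARNT, equal to a 1.18-fold higher mean in the control. In shBMAL1 it was 0.01, with a 95% interval of -0.15 to 0.17 (adjusted p = 0.944). The direct difference was 0.26 (SE 0.08, adjusted p = 0.00474), with MYC higher in shBMAL1. CASC11, which shares 194 exon bases with MYC on the opposite strand, did not exceed a group mean of 6.88 normalised reads.

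MAX (chromosome 14, 65472892 to 65569413, minus strand), the obligate partner of MYC and of the MXD repressors, passed the test in none of the comparisons. Its normalised read counts were 1909, 1913 and 1922 in shControl, 1842, 1838 and 1749 in shARNT, and 1864, 1967 and 1889 in shBMAL1. The shARNT libraries were all below the others, by a mean log2 fold change of -0.08 against shControl (95% interval -0.20 to 0.05, adjusted p = 0.397). In shBMAL1 the value was -0.01 (95% interval -0.15 to 0.13, adjusted p = 0.954). MAX was the network gene whose deposited counts had fractions, in all 9 libraries, and it shares 822 exon bases with FNTB on the opposite strand, which was also not called in any comparison (adjusted p = 0.282, 0.869 and 0.414).

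The MAX-binding repressors did not move as a group. MXD4 (chromosome 4, 2249159 to 2263836, minus strand), the most abundant of them per length, rose in both knockdowns. It was counted at 1835, 1852 and 2091 normalised reads in shControl, 2566, 2559 and 2457 in shARNT, and 2337, 2275 and 2181 in shBMAL1. All knockdown libraries were above all control libraries, and the shARNT libraries were the highest. The log2 fold change was 0.40 (SE 0.07, adjusted p = 1.41e-07) in shARNT and 0.23 (SE 0.08, adjusted p = 0.0136) in shBMAL1, and the shBMAL1 call was lost without shControl replicate 1 (log2 fold change 0.20, adjusted p = 0.109). The direct difference of -0.16 (SE 0.07, adjusted p = 0.0687) lost its call without shARNT replicate 1 (adjusted p = 0.197), shARNT replicate 2 (0.194), shBMAL1 replicate 2 (0.137) or shBMAL1 replicate 3 (0.22).

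MXI1 (chromosome 10, 111967363 to 112047123, plus strand), a repressor of the MXD family that is also known as a HIF target, followed the order of TXNIP. The libraries gave 599.7, 656.8 and 583.3 normalised reads in shControl, 454.1, 441.9 and 497.0 in shARNT, and 741.7, 747.8 and 806.9 in shBMAL1. The 3 groups did not overlap. MXI1 was lower in shARNT (log2 fold change -0.40, SE 0.11, adjusted p = 0.00103) and higher in shBMAL1 (0.32, SE 0.10, adjusted p = 0.0076). Its level in shBMAL1 was 1.65-fold that in shARNT (log2 difference 0.72, SE 0.10, adjusted p = 1.42e-10).

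MXD1 (chromosome 2, 70124820 to 70170077, plus strand), a repressor associated with differentiation, was the least abundant of the 10 genes. Its normalised read counts were 52.3, 35.0 and 34.4 in shControl, 59.4, 70.7 and 84.5 in shARNT, and 86.4, 61.5 and 68.6 in shBMAL1. Both knockdown groups lay above the controls and overlapped each other. Its log2 fold change was 0.82 (SE 0.31, adjusted p = 0.0296) in shARNT and 0.83 (SE 0.31, adjusted p = 0.0264) in shBMAL1. The direct difference was 0.01, with an interval of -0.51 to 0.54 (adjusted p = 0.986). Both calls rested on few reads. The shARNT call was lost without shControl replicate 2 (adjusted p = 0.131), shControl replicate 3 (0.131) or shARNT replicate 3 (0.196), and the shBMAL1 call without shControl replicate 2 (0.112), shControl replicate 3 (0.134) or shBMAL1 replicate 1 (0.174). MXD1 also shares 237 exon bases with SNRNP27 on the same strand, which was not called in any comparison (log2 fold changes of 0.06, 0.06 and 0.00).

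MNT (chromosome 17, 2287367 to 2304398, minus strand), a repressor expressed in growing and resting cells, passed the test in none of the comparisons. The libraries gave 622.8, 546.8 and 674.3 normalised reads in shControl, 687.9, 658.9 and 676.9 in shARNT, and 645.4, 571.4 and 705.0 in shBMAL1, and all ranges overlapped. MNT had a log2 fold change of 0.14 in shARNT (95% interval -0.06 to 0.34, adjusted p = 0.337) and 0.06 in shBMAL1 (95% interval -0.17 to 0.29, adjusted p = 0.774).

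Levels between genes were compared as normalised reads per kilobase of the union of annotated exons, which depends on the annotated isoforms. In shControl the order was TXNIP at 565 ± 54.4, MLXIP at 538 ± 12, MYC at 455 ± 33.9, MAX at 306 ± 1.05, MXD4 at 280 ± 20.8, MLX at 240 ± 24, MXI1 at 104 ± 6.53, MNT at 70.6 ± 7.37, ARRDC4 at 39.2 ± 3.26 and MXD1 at 6.39 ± 1.60. TXNIP and MLXIP overlapped in range, and the other neighbours in this order did not. In shARNT the leading genes were MYC at 384 ± 19.6, TXNIP at 372 ± 34.4, MXD4 at 368 ± 8.87 and MLXIP at 367 ± 21.6, whose ranges overlapped. In shBMAL1 TXNIP stood at 755 ± 57.8 and MYC at 459 ± 33.8, above MXD4 at 329 ± 11.5 and MLXIP at 325 ± 17.9, whose ranges overlapped.

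On this scale the sum of MXD4, MXI1, MNT and MXD1 was set against MYC in each library, as a description with no test. MGA and MXD3, described below, were not in the sum. The size of the ratio depends on the exon lengths used (6109 bases for MYC). It is therefore compared between libraries and not read as an excess of either side. The ratio was 1.05, 0.912 and 1.08 in shControl, 1.36, 1.35 and 1.48 in shARNT, and 1.11, 1.19 and 1.26 in shBMAL1. The shBMAL1 libraries were above all control libraries and the shARNT libraries above both, the latter with less MYC (384 against 455 in the control) and a larger repressor sum (535 ± 3.21 against 461 ± 21.7). The shBMAL1 libraries had a like repressor sum (544 ± 10.1) with MYC at the control level. MXD4 made up 60.7% of the repressor sum in shControl, 68.7% in shARNT and 60.6% in shBMAL1. The ratio of MLXIP to MLX was 2.26 ± 0.215 in shControl, 1.73 ± 0.0751 in shARNT and 1.78 ± 0.240 in shBMAL1. The highest shBMAL1 library was level with the lowest control library, at 2.05, and the shARNT libraries (1.65 to 1.8) were below the controls. These are ratios of transcripts, and the proteins were not measured in these libraries.

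**Figure D3:**
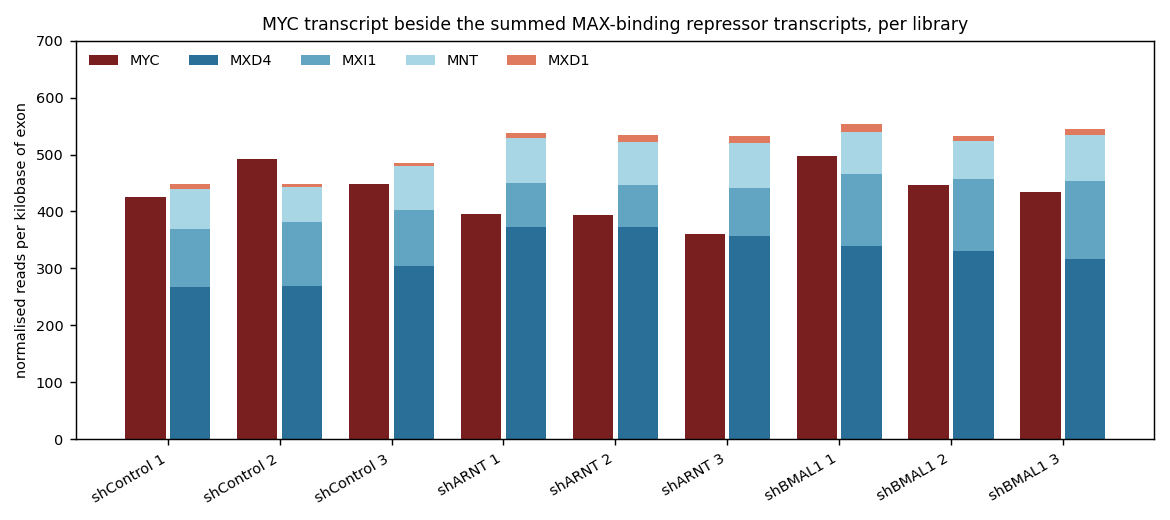
MYC (dark red bars) beside the stacked MAX-binding repressors MXD4, MXI1, MNT and MXD1 in each of the 9 libraries (x axis), in normalised reads per kilobase of exon (y axis, from 0). The ratio of the repressor stack to MYC is 1.35 to 1.48 in shARNT, 1.11 to 1.26 in shBMAL1 and 0.912 to 1.08 in shControl. Its size depends on the exon lengths used, so it is compared between libraries only.

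Network genes outside the 10 were few and weakly expressed apart from MGA and MXD3. MGA, which pairs with MAX, and MXD3 were called in no comparison, at 886 ± 70.4 and 205 ± 29.6 normalised reads in shControl. MYCL, a paralogue of MYC, rose with BMAL1 depletion. It was counted at 30.2, 17 and 15.2 in shControl, 43.9, 37.3 and 26.8 in shARNT, and 77.4, 85.7 and 94.0 in shBMAL1. MYCL differed from the control by 2.04 on the log2 scale (SE 0.34, adjusted p = 2.58e-08) in shBMAL1 and by 0.80 (95% interval -0.05 to 1.65, adjusted p = 0.164) in shARNT, and the direct difference was 1.25 (adjusted p = 0.000171). MYCN reached 1.01 normalised reads in 1 library and was 0 in the other 8. MLXIPL, the gene for ChREBP, stayed between 1.99 and 9.79.

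Among 9 E-box binding bHLH-ZIP factors outside the network, 4 of 8 tested were called in shARNT and 4 of 9 in shBMAL1, beside 35.4% and 36.8% of all genes tested. SREBF2, a regulator of cholesterol synthesis, was the lowest of them in shARNT (log2 fold change -0.29, adjusted p = 1.05e-07). TFE3, which drives lysosomal genes, was lower in shARNT (log2 fold change -0.27, adjusted p = 4.37e-05) and in shBMAL1 (-0.53, adjusted p = 3.13e-12). Its relative MITF was higher in both, by 0.24 (adjusted p = 0.0196) and 0.74 (adjusted p = 8.54e-14). SREBF1, a regulator of lipid synthesis, was higher in shARNT (0.27, adjusted p = 1.86e-06) and lower in shBMAL1 (-0.24, adjusted p = 0.00153). TFEC was at 0 in all control libraries and at 0.993, 11.1 and 6.86 normalised reads in shBMAL1, so no fold is given.

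Genes that MYC is known to activate were described over a list of 60, all tested. The list was written by hand with earlier results of these data known. In shARNT, where MYC was lower, 9 were lower and 11 higher, with a list median of 0.04. In shBMAL1, where no change in MYC was detected, 22 were lower and 7 higher, with a median of -0.10. In the direct comparison 29 were lower in shBMAL1 and 9 higher, with a median of -0.17. As shares, 15.0%, 36.7% and 48.3% of the list were called lower, beside 19.0%, 19.4% and 18.0% of all genes tested. The shares called higher were 18.3%, 11.7% and 15.0%, beside 16.5%, 17.4% and 17.3% of all genes. The shares over all genes are not matched to the list for read count, and genes with few reads were also tested. Most list genes called lower in shBMAL1 changed by less than 1.5-fold, and the counts at that cut are in the closing section.

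The genes of this list that fell most in shARNT were HK2, the first enzyme of glycolysis and also a known HIF target (log2 fold change -1.18, adjusted p = 2.38e-32), PA2G4, which acts in ribosome assembly (-0.68, adjusted p = 3.54e-22), and TERT, the telomerase subunit (-0.63, adjusted p = 0.0658). Those that rose most were TFB2M, a mitochondrial transcription factor (0.42, adjusted p = 0.000213), ODC1, of polyamine synthesis (0.28, adjusted p = 0.000734), and SUPV3L1, a mitochondrial helicase (0.27, adjusted p = 0.000153). In shBMAL1 the lowest were HK2 (-0.65, adjusted p = 1.5e-11) and CAD, of pyrimidine synthesis (-0.55, adjusted p = 7.23e-16), with TCOF1, a nucleolar protein gene, and SORD, sorbitol dehydrogenase, level at -0.53 (adjusted p = 1.24e-10 and 8.64e-13). CAD was counted at 10426, 10626 and 10553 normalised reads in shControl, 10096, 9774 and 10355 in shARNT, and 7730, 6939 and 6953 in shBMAL1. Its shARNT libraries lay just below the controls (log2 fold change -0.06, adjusted p = 0.357), and its shBMAL1 libraries far below both. SLC29A2, a nucleoside transporter, moved in opposite directions, at -0.58 in shARNT (adjusted p = 0.0427) and 0.72 in shBMAL1 (adjusted p = 0.00114). RCL1 and TMEM97 were higher in shBMAL1, by 0.48 (adjusted p = 0.000122) and 0.39 (adjusted p = 0.00166).

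**Figure D4:**
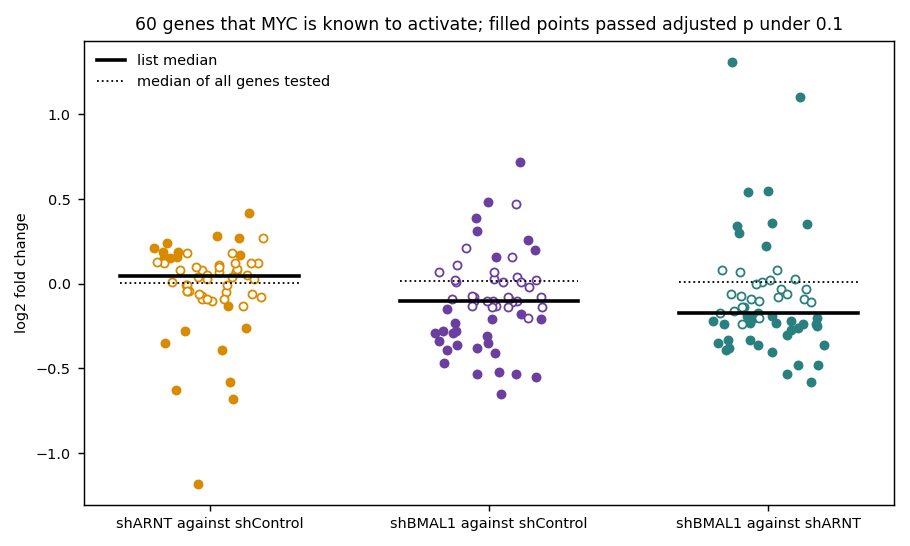
Log2 fold changes (y axis) of the 60 MYC-activated genes in the comparison named on the x axis (each knockdown with shControl, then shBMAL1 with shARNT). Each point is a gene, filled where the adjusted p was under 0.1, thick lines are list medians (0.04, -0.10 and -0.17) and dotted lines are medians of all genes tested. The filled points lie mainly below 0 in both comparisons of shBMAL1 (22 and 29 lower against 7 and 9 higher), and most of them are changes of less than 1.5-fold.

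Among 19 genes for MYC cofactors and for proteins that act on MYC stability, 4 were lower and 3 higher in shARNT, and 9 were lower and 1 higher in shBMAL1 (47.4% lower, list median -0.11). Over all genes tested, 19.0% were lower and 16.5% higher in shARNT, so that the list stood near that background there, and 19.4% were lower and 17.4% higher in shBMAL1. The direct comparison had 10 lower and 1 higher in shBMAL1, beside 18.0% and 17.3% of all genes. In shARNT, SKP2, a ubiquitin ligase subunit that acts on MYC, was lower (log2 fold change -0.42, adjusted p = 4.45e-09), as was EP400, a subunit of a histone acetyltransferase complex (-0.20, adjusted p = 0.00867). FBXW7, the ligase subunit that marks phosphorylated MYC for degradation, was higher there (0.50, adjusted p = 0.00221), and so were USP28, which opposes it (0.42, adjusted p = 1.83e-06), and the acetyltransferase gene KAT5 (0.22, adjusted p = 0.0163). In shBMAL1 the lowest were CIP2A, listed as KIAA1524, which protects MYC from a phosphatase (-0.44, adjusted p = 2.01e-10), EP400 (-0.41, adjusted p = 6.02e-07) and WDR5, which tethers MYC to chromatin (-0.36, adjusted p = 2.33e-05). SIN3A, a corepressor that MXD proteins recruit, was the gene called higher in shBMAL1 (0.17, adjusted p = 0.0652). SIN3B (-0.19, adjusted p = 0.0821) and HDAC1 (-0.25, adjusted p = 0.00191), on the same list, were lower there. HDAC2 was not called (adjusted p = 0.985).

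Of 8 genes that MYC is known to repress, 7 had reads. In shARNT, 3 were lower and 1 higher of 6 tested, beside 19.0% and 16.5% of all genes, with a median of -0.50. NDRG1, which is also a well known hypoxia-induced gene, led the decrease, from 50630 ± 2343 normalised reads in shControl to 16539 ± 1925 (log2 fold change -1.61, adjusted p = 6.22e-116). GADD45A and GADD45B, which respond to DNA damage and stress, were lower by 0.57 (adjusted p = 3.84e-07) and 0.45 (adjusted p = 7.99e-06) on the log2 scale, and CDKN1A, the cell cycle inhibitor p21, was higher (0.35, adjusted p = 1.56e-05). In shBMAL1, 2 were lower and 2 higher of 7 tested, beside 19.4% and 17.4% of all genes. GADD45A (log2 fold change -0.30, adjusted p = 0.0133) and NDRG1 (-0.16, adjusted p = 0.0912) were lower, and CDKN1A (0.34, adjusted p = 8.76e-06) and NDRG2 (1.39, adjusted p = 8.43e-07) were higher. NDRG2 stood at 48.6 normalised reads in shControl and 128 in shBMAL1.

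The genes whose log2 normalised counts followed TXNIP most closely over the 9 libraries, among 11806 genes with a mean of at least 100, were FUCA1 (Pearson's r = 0.991), PKHD1 (0.989) and SLC6A6 (0.988). FUCA1, a lysosomal fucosidase, ran from 1786 in shARNT through 2236 in shControl to 2774 in shBMAL1. For MYC the closest genes were SPRED1 (r = 0.957), CMIP (0.951) and NEDD4L (0.944). SPRED1, an inhibitor of RAS signalling, was measured at 861 in shControl, 689 in shARNT and 830 in shBMAL1. The libraries fall into 3 groups, so these values describe a shared order of groups and carry no test.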

How the data were processed

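RNA from 9 libraries of 786-O cells was sequenced by BGI from stranded mRNA. The values were estimated counts that the authors deposited, untransformed, as a total of reads for each gene. The study's methods give alignment to GRCh37 with SeqMan NGen and counting in ArrayStar, whereas the submitters' processing notes list STAR, DESeq2 and hg38, so the build of the counts stays uncertain. The annotation and strand setting were not given in the sources used here, so overlapping genes are treated as uncertain. The stand-in value 0.009 was set to 0, fractions were rounded to whole numbers, and rows sharing a name were added (53 of 38074 rows), which left 38021 genes. In 28 rows the symbol was a date, and these stayed unnamed.

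Each comparison was fitted in DESeq2 1.42.0 (R 4.3.3) on the 6 libraries of its groups, with the Wald test, independent filtering and Benjamini-Hochberg adjustment at 0.1. The p values are two-sided, and normalised read counts used size factors over all 9 libraries. Exons and positions came from GENCODE lifted to GRCh37. Scripts were tested on simulated data. The alternatives are listed in the closing section. The genes and gene lists were chosen with earlier results of these data known. Named genes were the 10 network genes, the targeted genes, up to 3 called genes with the lowest and 3 with the highest fold change of each further list in each knockdown (all genes of lists of 5 or fewer), and the 3 genes most like MYC and TXNIP. The protein-coding genes FNTB, PSMC3IP and SNRNP27 and the noncoding CASC11, which overlap exons of a network gene, were also named, and other overlapping genes were not. SIN3B, HDAC1 and HDAC2 were named beside SIN3A. Some genes of the lists are not reported here by name.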

Additional observations from a re-analysis of the deposited data

How the results depend on the processing

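The fold changes of the 10 network genes, the count of them called and the count of MYC-activated genes called lower were recomputed with edgeR 4.0.16 (quasi-likelihood test), TMM size factors, a filter of 10 counts in 3 libraries, no independent filtering, a threshold of 0.05, a change of at least 1.5-fold, 1 fit of all 9 libraries, a replicate block, a GC correction (loess span 0.3), rounding down and each library left out in turn. Of 480 fold changes of network genes under these alternatives, 434 kept their direction and side of the threshold. Requiring a 1.5-fold change left 3 network genes called in shARNT, 2 in shBMAL1 and 3 in the direct comparison, and 3, 1 and 0 MYC-activated genes lower. The share of all genes called was computed for the main setting only, so counts under the alternatives have no background beside them. Signs turned for values that were not called. In shBMAL1 against shControl, MAX became 0.03 with the GC correction, and with 1 library left out MAX ran from -0.03 to 0.01, MYC from -0.05 to 0.07 and MNT from -0.02 to 0.14. In the direct comparison, with 1 library left out, MXD1 ran from -0.14 to 0.14 and MNT from -0.15 to 0.0005. The cause was not tested. Replicate numbers are shared between groups, but same-numbered libraries did not deviate together (r from -0.154 to 0.105 over 9 pairs, 1 of them over 0.1). With the number as a replicate block, 6, 6 and 5 network genes were called and 7, 19 and 28 MYC-activated genes were lower, again with no share of all genes. The calls lost with the block were MXD1 in shARNT (adjusted p = 0.117) and MXD4 in the direct comparison (adjusted p = 0.124). The other gene lists and genes were fitted once, with no alternative. Of the 10 network genes, MXD1 and ARRDC4 had the fewest reads, which limits their precision.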
